A study of Mus musculus with 3 samples.

Results

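The genes described here are 9 immediate early genes of T cell activation: Nr4a1, Nr4a2, Nr4a3, Egr1, Egr2, Egr3, Nfkbid, Fos and Jun. They were taken by symbol from the 32285 genes of the files, and all 9 were present. They were chosen by symbol with their unique molecular identifier (UMI) counts per cell type and well and their joint presence in cells already known, so these values are given as descriptions, without a test. No threshold on a value was used. Duodenal immune cells were sequenced one by one in 10x droplets from transcript 3' ends (v3 chemistry), 30 days after an injection into the muscle of the duodenal wall. One group received saline and the other preformed fibrils (PFF) of recombinant mouse alpha-synuclein, the aggregated form of that protein. All mice were C57B6/J and, per the title of the series, male; the sources used here do not give their age or how many mice went into a library. Minced duodenum was treated with the enzyme mix Accumax at 37 °C for 5 minutes, and cells sorted for CD45 were pooled with live cells captured on CD11b beads. Transcription in the tissue and transcription during this digestion cannot be told apart here.

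There are 2 libraries labelled saline and 1 labelled PFF; per the labels, batch 1 holds saline 1 and PFF 1, and batch 2 holds saline 2. Each saline file joins 4 wells, of which 3 wells, with 1509, 3648 and 8732 cells, occur in both files, cell for cell and count for count. These shared wells were counted once and are reported as shared 1, 2 and 3, while saline 1 and saline 2 stand for the well that each file alone holds. After filtering, T cells were gated as cells with at least 2 of Cd3d, Cd3e and Cd3g, the chains of the T cell receptor complex, and no member gene was used in a gate. The 6 wells held 622 to 9042 T cells, with medians of 3200.5 to 10248.5 UMIs per T cell. Cd3e was found in 99.1% of the gated T cells, the B cell genes Cd79a and Ms4a1 in 1.03% and 0.705%, and the macrophage gene C1qa in 0.593%. Saline 2 and PFF 1 had 119 barcode sequences in common and the other pairs of wells 1 to 42. Leaving out the 191 kept cells with those 119 barcodes, an alternative chosen after seeing the data, also gave 0 members called in each class tested below.

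Immediate early genes are transcribed within minutes of a signal, without new protein synthesis. In T cells, engagement of the antigen receptor drives calcium, MAP kinase and NF-kB signals that switch on the orphan nuclear receptors Nr4a1 (Nur77), Nr4a2 (Nurr1) and Nr4a3 (Nor1), the zinc finger factors Egr1, Egr2 and Egr3, and the nuclear NF-kB regulator Nfkbid (IkBNS). Fos and Jun form the AP-1 factor and respond to many stimuli, stress among them, and the duodenal epithelium is rich in intraepithelial T cells, many of which carry a gamma-delta receptor or CD8 alpha-alpha.

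Promoter sequences are shown because the Nr4a genes, Egr2 and Fos were found in the same T cells far more often than their shares predict, while Jun was not. RefSeq windows of 250 bases before an annotated start (GRCm38.p6, the assembly that mm10 names) were matched for 7 of the members, 13 windows in all. Each was searched on both strands for the half-site of the cyclic AMP response element (TGACG, which reads CGTCA on the other strand), for the CArG box of serum response factor and for the TATA box (TATAAA, which reads TTTATA on the other strand), and capitals mark these 3 below. AP-1 (TGANTCA), Egr and NF-kB sites were searched too and are not marked. The stretches run 5' to 3' on the gene's own strand and leave out bases inside GENCODE vM21 exons of the gene.
Nr4a1, chr15:101266596-101266845 (plus strand, inside the longest gene model and outside its exons): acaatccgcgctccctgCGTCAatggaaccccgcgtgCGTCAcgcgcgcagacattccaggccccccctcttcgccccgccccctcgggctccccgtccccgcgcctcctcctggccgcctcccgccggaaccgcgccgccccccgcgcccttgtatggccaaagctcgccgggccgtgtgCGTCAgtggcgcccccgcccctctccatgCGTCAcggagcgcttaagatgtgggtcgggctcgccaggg
Nr4a2, chr2:57124004-57124253 (minus strand, directly upstream of the gene): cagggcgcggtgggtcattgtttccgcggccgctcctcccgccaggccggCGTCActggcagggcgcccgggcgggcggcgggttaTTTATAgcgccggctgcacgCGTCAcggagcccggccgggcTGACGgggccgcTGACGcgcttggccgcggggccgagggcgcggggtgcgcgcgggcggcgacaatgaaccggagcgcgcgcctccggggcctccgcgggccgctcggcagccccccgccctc
Nr4a3, chr4:48045055-48045152 (plus strand, directly upstream of the gene): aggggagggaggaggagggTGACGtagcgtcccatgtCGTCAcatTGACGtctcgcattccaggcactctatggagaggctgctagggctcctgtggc
Egr2, chr10:67537619-67537868 (plus strand, inside the longest gene model and outside its exons): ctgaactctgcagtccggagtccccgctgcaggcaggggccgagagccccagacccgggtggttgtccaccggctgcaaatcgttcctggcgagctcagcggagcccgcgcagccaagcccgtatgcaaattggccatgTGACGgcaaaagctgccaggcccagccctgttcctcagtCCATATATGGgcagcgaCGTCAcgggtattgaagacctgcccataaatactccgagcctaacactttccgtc
Fos, chr12:85473640-85473889 (plus strand, directly upstream of the gene): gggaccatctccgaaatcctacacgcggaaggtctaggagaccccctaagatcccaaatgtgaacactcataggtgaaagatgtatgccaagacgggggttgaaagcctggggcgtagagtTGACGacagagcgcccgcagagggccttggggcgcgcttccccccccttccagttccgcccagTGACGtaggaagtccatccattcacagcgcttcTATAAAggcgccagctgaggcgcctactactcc
Jun, chr4:95052223-95052472 (minus strand, directly upstream of the gene): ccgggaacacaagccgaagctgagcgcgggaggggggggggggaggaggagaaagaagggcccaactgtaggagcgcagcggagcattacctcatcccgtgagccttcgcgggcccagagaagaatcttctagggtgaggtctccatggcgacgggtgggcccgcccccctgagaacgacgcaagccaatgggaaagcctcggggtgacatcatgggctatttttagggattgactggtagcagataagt
The half-site occurred 4 times in the 250-base window of each of Nr4a1, Nr4a2 and Nr4a3. At least 3 copies were present in 0.688% of all 32851 mouse windows, and at least 1 copy in 17.8%. Fos and the Egr2 window shown held 2 half-sites each, and the Jun window held none. Only exact matches were counted. The Jun window holds tgacatca, which is close to the full element TGACGTCA and which none of the patterns searched matches. The absence of a mark there does not show that a related element is absent. The Egr2 window also held 1 CArG box, a motif present in 1.47% of all windows. TATAAA was found once in Nr4a2 and once in Fos, against 12.4% of all windows. Of the 3 Nfkbid windows, 1 held the full element TGACGTCA, whose 2 strands count as 2 half-sites and which is in 1.55% of all windows. NF-kB sites, in 7.25% of all windows, numbered 2 in that Nfkbid window, 2 in an Egr2 window not shown and 1 in Fos. Egr sites, in 4.70% of all windows, were found once in Nr4a1 and once in Nr4a2. AP-1 sites, in 6.75% of all windows, were found in none of the 13 windows. These matches describe letters only, and whether a factor binds them was not measured.

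In T cells the nuclear receptor Nr4a2 had the highest level of the 9 genes in every well. Levels are UMIs as CPM of the T cell UMIs of a well; since 3' chemistry counts transcripts from one end, they were not scaled by length. Nr4a2 was at 116 CPM in saline 1, 163 in saline 2, 213, 171 and 164 in shared 1 to 3, and 147 in PFF 1. Saline 1 was the lowest well and shared 1 the highest. Its relatives were about an order lower. Nr4a3 was at 16.6 CPM in saline 1, 33.1 in saline 2, 47.0, 13.1 and 21.5 in the shared wells and 28.8 in PFF 1. Nr4a1 was at 13.1 and 17.0 CPM in the saline libraries, 27.9, 7.96 and 11.8 in the shared wells and 13.4 in PFF 1. Shared 1 was the highest and saline 1 or shared 2 the lowest well for each of the 3 receptors.

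Among the Egr factors, Egr1 led. Egr1 was at 45.4 CPM in saline 1, 66.02 in saline 2, 85.1, 38.9 and 48.6 in the shared wells and 57.5 in PFF 1. Egr3 ranged over the wells from 11.8 to 19.1 CPM and Egr2 from 4.07 to 7.03 CPM. Egr2 was the lowest of the 9 genes in saline 1, saline 2, shared 1, shared 2, shared 3 and PFF 1 alike. Nfkbid, which modulates NF-kB in the nucleus, was the most even member: 23.2 and 23.9 CPM in the saline libraries, 21.9, 18.2 and 18.3 in the shared wells and 27.3 in PFF 1. Of the AP-1 subunits, Jun was at 23.9 CPM in saline 1, 58.6 in saline 2, 40.0, 32.5 and 21.5 in the shared wells and 44.7 in PFF 1. Fos stood at 4.37 CPM in saline 1 and at 7.75 to 15.9 CPM in the other wells. Ranked by their median over wells, the genes ran Nr4a2, Egr1, Jun, Nr4a3, Nfkbid, Egr3, Nr4a1, Fos and Egr2. Only Nr4a2 had a range that did not meet that of its neighbour in this order.

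Intervals of the levels cover counting error only. For Nr4a2 the exact Poisson 95% interval was 111 to 122 CPM in saline 1 and 158 to 167 CPM in saline 2. UMIs of 1 cell are not independent, and the richest 1% of T cells held 26.4% and 20.6% of the Nr4a2 UMIs in these wells. Such intervals are too narrow to compare wells and are no test between them. Summed over the 9 genes, the level was 259 CPM in saline 1 and 398 in saline 2, 471, 316 and 312 in the shared wells and 352 in PFF 1. The 13 heat shock genes summed to 2288 CPM in saline 1, 2949 in saline 2, 2227, 2044 and 1899 in the shared wells and 3101 in PFF 1, and 0 or 1 of them was at 0 in a well. Median mitochondrial shares ran from 1.46% in saline 1 to 2.74% in shared 2. Shared 1, the well with the highest member sum, was not the highest in heat shock genes, and the part of either quality measure in the member levels was not tested.

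**Figure D1:**
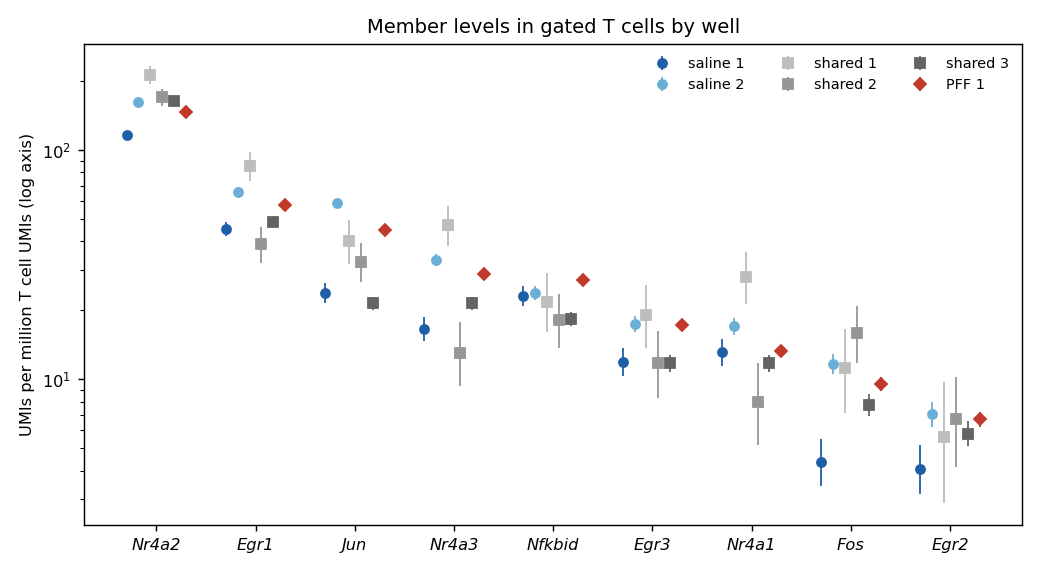
Level of each member in gated T cells, as CPM of T cell UMIs on a log axis, for the 6 wells; bars are exact Poisson 95% intervals. Nr4a2 lies above all other genes in each well, and saline 1 is the lowest well for Nr4a2, Fos and Egr2.

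Across T cell types, Nr4a2 separated the intraepithelial types from conventional CD4 T cells. To compare cell types of unequal depth, every cell was reduced at random to 2000 UMIs and shallower cells were left out. Nr4a2 was then found in 16.8% of 14302 gamma-delta T cells and 19.6% of 6362 CD8 alpha-alpha T cells, but in 5.71% of 1016 CD8 alpha-beta T cells and 1.45% of 138 conventional CD4 T cells. In single wells the gamma-delta share ran from 12.5% in saline 1 to 24.5% in shared 1, and the CD8 alpha-alpha share from 15.4% in saline 1 to 25.1% in shared 2. Without thinning, 19.4% of T cells in saline 1 and 40.3% in PFF 1 had a Nr4a2 UMI, at medians of 3210 and 9134 UMIs per cell.

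The CD8 alpha-beta cells were not of one level. Nr4a2 was at 35.2 CPM in saline 1, 191 in saline 2, 22.0, 151 and 37.2 in shared 1 to 3 and 73.3 in PFF 1. Saline 2 and shared 2, with 46 and 50 of these cells, reached the level of the intraepithelial types, while saline 1, shared 1 and shared 3 did not. Conventional CD4 T cells gave 1 Nr4a2 UMI in 74 cells of shared 3 and 2 UMIs in 50 cells of PFF 1. Cycling T cells, gated on Mki67 and Top2a, resembled the bulk of T cells: Nr4a2 lay between 130 CPM in shared 3 and 188 in PFF 1 in the wells with at least 50 of them. Egr1 and Jun differed less by type than Nr4a2. Egr1 was found in 4.92% of gamma-delta, 5.55% of CD8 alpha-alpha, 3.94% of CD8 alpha-beta and 4.35% of conventional CD4 T cells. Jun was found in 6.62%, 6.55%, 3.15% and 4.35% of the same types, in the same order. Egr3 was in 0 of 138 conventional CD4 T cells, which allows a share of up to 2.17%, and in 1.43% of gamma-delta T cells.

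Other classes used different subsets of the 9 genes. B cells had Nfkbid in 10.1%, Egr3 in 7.87% and Nr4a1 in 5.49% of 1093 thinned cells, but Nr4a2 in 0.457% and Nr4a3 in 0.366%. In PFF 1 the contrast held within 1 well: Nr4a2 was in 0 of 555 B cells, which allows up to 0.541%, and in 15.97% of 8955 T cells, at unthinned medians of 7165 and 9134 UMIs. Before thinning, 0.709% of the PFF 1 B cells had a Nr4a2 UMI. Plasmacytoid dendritic cells (pDC) had Nr4a2 in 0 of 325 cells, which allows up to 0.923%, with Nfkbid in 6.77% and Nr4a1 in 3.08%.

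Conventional dendritic cells (cDC) had higher shares than gamma-delta T cells of each member but Nr4a2. Of 187 cDC, 12.8% had Nr4a1, 12.8% Nr4a3, 10.2% Nr4a2, 17.1% Egr1, 19.3% Nfkbid, 21.9% Fos and 23.0% Jun. Macrophages and monocytes had Fos in 15.7%, Jun in 13.2% and Nr4a1 in 8.81% of 159 cells, but Nr4a2 in 1.26%. Epithelial cells and plasma cells held AP-1 subunits and Egr1 with little of the rest. Egr1 was in 8.70% of epithelial and 7.89% of plasma cells. Fos was in 33.6% and Jun in 39.9% of 1528 epithelial cells, while Nr4a1 and Nfkbid were each in 0.262%. Plasma cells had Fos in 32.9% and Jun in 23.7% of 76 cells, and no UMI of Nr4a1, Nr4a2, Nr4a3, Egr2 or Egr3, which allows up to 3.95% for each. These classes are small, and 2 wells at most held 50 or more cDC or macrophages.

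**Figure D2:**
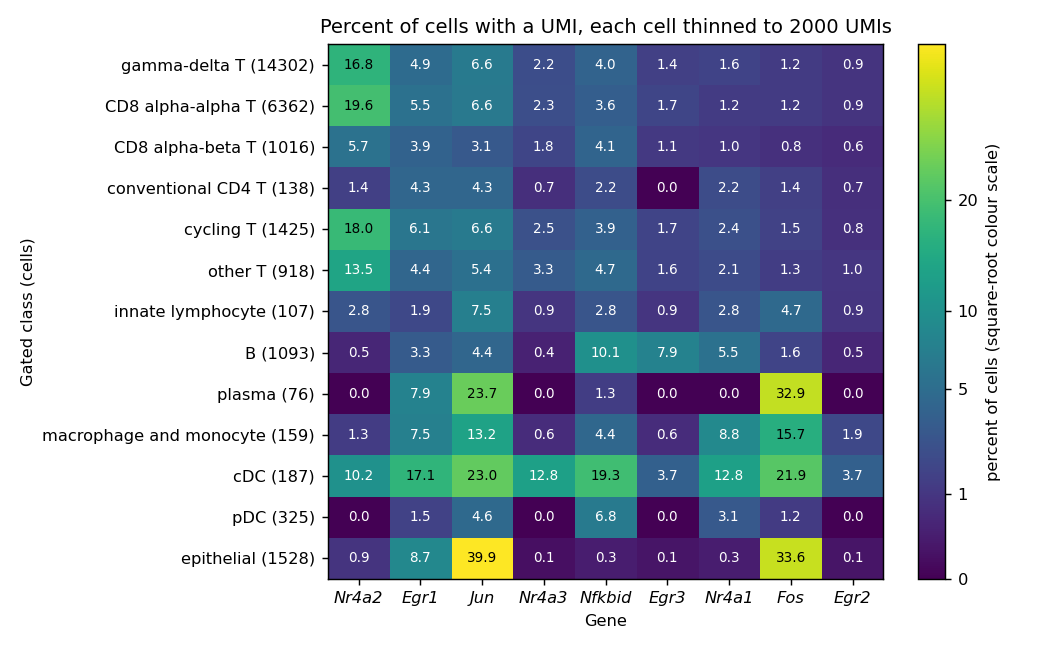
Percent of cells with at least 1 UMI of each member, by gated class, with cells of all wells together and each cell thinned to 2000 UMIs; the number of cells is in brackets and the colour scale is a square root. Nr4a2 is high in gamma-delta, CD8 alpha-alpha and cycling T cells and low in B cells, Fos and Jun are highest in epithelial cells, and cDC exceed gamma-delta T cells for all genes but Nr4a2.

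Within T cells the UMIs of some members were concentrated in few cells and those of others were spread over many. In PFF 1 the richest 1% of T cells for a gene held 68.4% of the Nr4a1 UMIs, 64.3% of Nr4a3, 68.5% of Egr3, 65.4% of Egr2 and 62.5% of Fos, against 44.8% of Egr1, 23.5% of Nfkbid, 22.3% of Nr4a2 and 15.3% of Jun. Genes of like level differed in this. Nr4a3 and Nfkbid were at like levels in PFF 1, 28.8 and 27.3 CPM, and Nr4a3 reached 87 UMIs in 1 cell against 24 for Nfkbid. Likewise Egr1 and Jun were at 57.5 and 44.7 CPM, and 10.9% of the unthinned T cells had an Egr1 UMI against 26.4% with a Jun UMI. For Jun, which is high in epithelial cells, the part of free RNA in this spread was not tested.

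The concentrated genes were found together in cells more often than their shares predict. For each pair the number of thinned T cells with both genes was set against the number expected from the shares in each well, summed over wells. Egr2 and Egr3 were together in 63 of 24180 cells, where 3.26 were expected, a ratio of 19.3. The Nr4a1 pairs were close behind, with 18.1 for Egr3, 17.6 for Egr2 and 16.1 for Nr4a3. Of cells with Nr4a3, 25.0% also had Nr4a1, against 0.999% of cells without Nr4a3. By well, the ratio for Nr4a1 with Nr4a3 was 13.5 in saline 1, 18.3 in saline 2, 18.0, 15.5 and 15.5 in shared 1 to 3 and 16.1 in PFF 1. The 6 wells thus gave a like ratio, although shared 1 rests on 7 and shared 2 on 3 cells with both genes.

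Egr1 and Fos were also found with these genes more often than their shares predict. Still, 35.4% of the cells with Egr1 and 35.1% of those with Fos had no other member. Egr1 gave ratios of 12.8 with Egr2, 10.6 with Egr3 and 8.31 with Nr4a1, and Fos gave 11.9 with Egr2 and 10.7 with Nr4a1. Nfkbid stood lower, from 1.79 with Nr4a2 to 5.88 with Nr4a1. Nr4a2 gave 3.66 with Nr4a1, 3.58 with Nr4a3 and 4.12 with Egr3. It was in 16.9% of all T cells, and the ratios of so common a gene have a lower upper limit. They do not show that Nr4a2 joined less closely. Of cells with Egr3, 69.5% had Nr4a2, but of cells with Nr4a2 only 6.24% had Egr3.

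Jun was the exception. Its 8 pairs had ratios from 0.803 with Egr1 to 1.54 with Fos, and a median of 1.01. The other 28 pairs ran from 1.79 to 19.3 with a median of 5.998, and 24 of them lay above expectation in all 6 wells, against 0 of the Jun pairs. Taken as a sum over pairs, the ratio without Jun was 4.89 in saline 1, 4.15 in saline 2, 3.98, 3.59 and 3.81 in the shared wells and 4.51 in PFF 1. With Jun it was 0.791 in saline 1, 0.818 in saline 2, 1.29, 1.01 and 1.02 in the shared wells and 1.14 in PFF 1. Single Jun pairs lay on both sides of 1 by well. Nr4a1 with Jun gave 2.24 in PFF 1, from 24 cells where 10.7 were expected. In saline 2 it gave 0.402, from 2 cells where 4.97 were expected. Nr4a3 with Jun gave 1.64 in PFF 1 and 0.315 in saline 2. Within types, Nr4a1 with Nr4a3 gave 16.2 in gamma-delta and 16.3 in CD8 alpha-alpha T cells. Nr4a2 with Jun gave 0.844 and 1.07 in the same types. Nr4a2 is common and its ratios have a lower upper limit, so the size of the gap between these pairs is not read. Nr4a1 with Jun within types is not given here. In B cells, Nr4a1 with Egr3 gave a ratio of 3.39 from 17 cells with both. In epithelial cells Jun with Fos gave 1.52 from 330 cells with both. This value and the 1.54 in T cells have unlike upper limits and cannot be compared directly. Jun was in 39.9% of epithelial cells and in 6.40% of T cells.

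Jun in T cells is given beside the epithelial content of each well. The thinned share of T cells with Jun was 4.29% in saline 1, 10.8% in saline 2, 6.14%, 6.09% and 4.23% in shared 1 to 3 and 7.60% in PFF 1. These wells held 40, 525, 202, 754, 8 and 479 epithelial cells in the same order, so Jun was lowest in the 2 wells with the fewest, while shared 2, with the most, was not the highest. The 10 epithelial markers summed in T cells to 281, 353, 305, 413, 271 and 295 CPM, with 0 to 2 markers at 0 in a well. B cells, at 4.32% in PFF 1 and 2.79% in shared 3, had Jun shares below those of T cells in the same wells, at 7.60% and 4.23%, while in saline 2 the share was 14.8% of 81 B cells. The part of free epithelial RNA in the Jun shares and in the ratios near 1 was not tested.

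Ratios with genes of cell background and stress genes are given beside these. Against 10 leukocyte or housekeeping genes such as Ptprc and Actb, each member had a median ratio between 0.987 and 1.00. Most of the 10 are common: Ptprc was in 98.2% and Actb in 99.5% of T cells with no member. Ratios with genes so common cannot lie far above 1, so they are no scale for pairs of rare genes. The lowest single value was 0.258, for Nr4a2 with Cd2, a gene found in 415 of the thinned T cells. Against 11 to 13 heat shock genes the medians were 1.01 for Egr2 to 1.25 for Nr4a1. The same limit holds for the common ones, such as Hsp90ab1, found in 70.1% of T cells with no member. The inducible chaperones Hspa1a and Hspa1b went higher in places, with 2.96 for Nr4a1 with Hspa1b, 3.12 for Fos with Hspa1a and 2.03 for Jun with Hspa1a, from 11, 4 and 14 cells with both. Depth within a well was made equal by thinning, and a part of these chaperones in the member ratios was not tested.

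**Figure D3:**
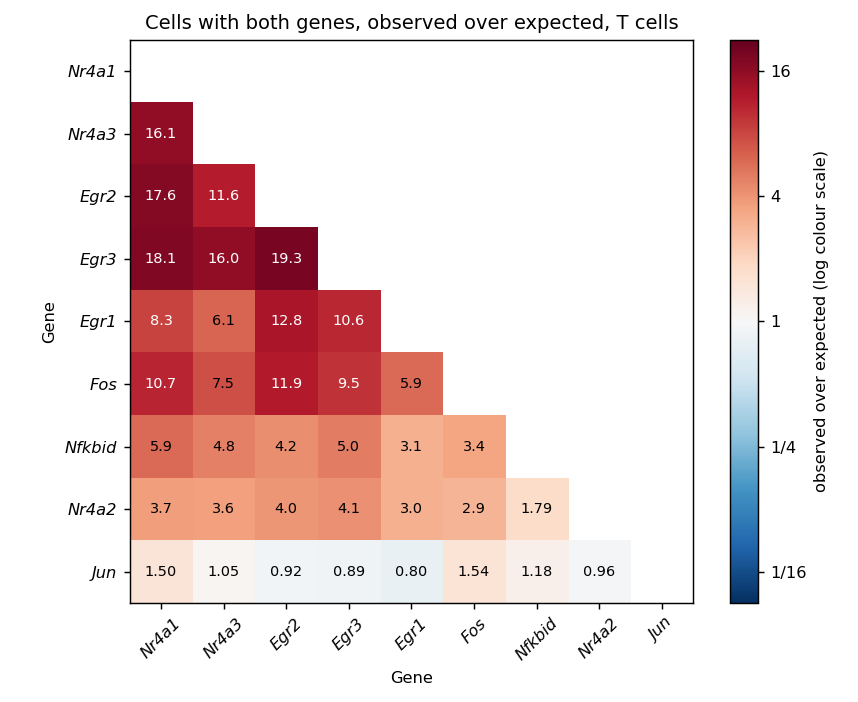
Number of T cells with both genes over the number expected from each gene's share, for all 36 pairs of members over 24180 T cells thinned to 2000 UMIs; colour is on a log scale. The block of Nr4a1, Nr4a3, Egr2 and Egr3 lies between 11.6 and 19.3, and the Jun row between 0.80 and 1.54.

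Counted per cell, 17244 of the 24180 thinned T cells had none of the 9 genes, 5323 had 1, 1023 had 2 and 590 had 3 or more. In cells with 1 member that gene was Nr4a2 in 52.1% and Jun in 22.2%. In cells with 3 or more, Nr4a2 was present in 90.3%, Egr1 in 70.0%, Nr4a3 in 46.3% and Jun in 15.8%. Cells with 3 or more members made up 1.75% of T cells in saline 1, 3.13% in saline 2, 3.25%, 2.44% and 2.11% in the shared wells and 2.74% in PFF 1. The exact binomial 95% interval was 1.38 to 2.19% for saline 1 and 2.54 to 3.82% for saline 2. It was 1.45 to 3.82% for shared 2 and 2.41 to 3.10% for PFF 1. These intervals cover the counting of cells only. Cells of a well are not replicates, so the intervals are no test between wells. By type the share was 2.40% in gamma-delta, 2.59% in CD8 alpha-alpha, 3.02% in cycling, 1.18% in CD8 alpha-beta and 0.725% in conventional CD4 T cells. One CD8 alpha-alpha T cell of PFF 1 had all 9.

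Marker sums of the cells rich in members are given beside those of cells with no member. All these cells were gated on Cd3 genes, so a high sum of T cell markers was fixed by the gate. The 8 T cell markers summed to 6587 CPM in cells with no member and 6997 CPM in cells with 3 or more. The 10 macrophage and monocyte markers summed to 8.61 and 9.32 CPM, with 4 of 10 at 0 in the cells with 3 or more, and the 8 B cell markers to 46.2 and 40.7 CPM with 1 at 0. The 8 cDC markers summed to 10.6 and 33.1 CPM, with 1 at 0 in the cells with 3 or more, and a part of cDC transcripts in these cells was not tested. Median UMIs before thinning were 6697.5 in cells with no member and 8544.5 in cells with 3 or more, and median mitochondrial shares were 2.07% and 1.90%. The part of depth in these counts beyond thinning was not tested.

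The genes that went with the members over cells were named by a rule: in each well, whether a gene had a UMI was correlated with the number of members in the cell, and the coefficients were averaged over the 6 wells for 9021 genes. The 15 highest were Ccl4, Ccl3, Plek, Bcl2a1b, Bcl2a1d, Fosl2, Tagap, Zfp36l1, Cd69, Rel, Jarid2, Cdc14a, Junb, Spry2 and Ier2. Ccl4, a chemokine that attracts leukocytes, was in 23.6% of cells with no member and 73.7% of cells with 3 or more in saline 1, in 22.5% and 73.1% in saline 2, and in 21.5% and 73.9% in PFF 1. In shared 1 to 3 the shares went from 17.7% to 88.9%, 17.9% to 72.2% and 14.5% to 53.6%. The step was in the same direction in 6 of 6 wells, with a mean r of 0.207 over cells of a well, which share depth and library. Ccl3, a chemokine of the same family, went from 7.32% to 36.3% over all wells and Cd69, an early surface marker of activation, from 11.4% to 38.8%. The NF-kB subunit Rel went from 15.4% to 40.3%, and the AP-1 subunit Fosl2 from 2.44% to 19.3%.

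The 5 lowest genes were Themis, Cd226, Bcl11b, Epsti1 and Grap2. Grap2 (Gads), an adaptor that links Lat to Lcp2 under the antigen receptor, was in 64.9% of cells with no member and 40.0% of cells with 3 or more. Themis, a regulator of receptor signal strength, went from 31.7% to 19.5%, and Bcl11b, a factor of T lineage identity, from 33.7% to 17.1%. CD8 alpha-beta T cells made up 4.95% of cells with no member and 2.03% of cells with 3 or more. The part of the mix of types in these shares was not tested. These correlations are weak and are descriptions over cells, not tests over animals.

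Lists of pathway genes gave the wider pattern, read beside the 9021 ranked genes, of which 37.0% were found in a larger share of the cells with 3 or more members than of cells with none and 3.03% were so in every well. The list counts also cover genes too rare to be ranked, so the counts among ranked genes, the set that the 37.0% describes, follow them. Of 17 other AP-1 and serum response genes 14 had a larger share, 6 of them in every well, and among the ranked it was 10 of 10. Btg2 was among them, from 19.5% to 41.4%, and Jund barely differed, at 32.9% and 35.9%. Of 11 NF-kB genes, all ranked, 9 had a larger share, 6 in every well. Nfkbia, the inhibitor that NF-kB itself induces, went from 7.49% to 22.4%, Relb from 6.39% to 17.3%, and Rela was at 10.2% and 9.32%. Of 9 MAP kinase feedback genes 8 had a larger share (7 of 7 ranked), 2 in every well, and the phosphatase Dusp5 went from 6.72% to 21.5%. Of 11 other factors induced through the receptor 10 had a larger share (8 of 9 ranked), 5 in every well, with the cyclic AMP responsive Crem at 7.56% and 21.5%.

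Effector and receptor genes were more mixed. Of 16 cytokines and chemokines 11 had a larger share, 5 in every well, but only 4 were common enough to be ranked, of which 4 had a larger share. The chemokine Xcl1 went from 19.7% to 40.5% and Tnf from 0.470% to 4.92%. Of 16 induced surface proteins 8 had a larger share (5 of 8 ranked), 3 in every well. The costimulatory receptor Tnfrsf9 (4-1BB) went from 12.8% to 31.7%, and Pdcd1 was at 0.447% and 0.339%. The components of receptor signalling split evenly, 10 of 21 (9 of 20 ranked) with 2 in every well, and the comparators gave 4 of 10 (3 of 8 ranked) with 1 in every well. Of 11 resting T cell genes 2 had a larger share (1 of 6 ranked), 0 in every well. Of 13 heat shock genes 11 had a larger share (9 of 10 ranked), 1 in every well. Hspa8 went from 59.5% to 68.3%, Hspa5 from 43.8% to 54.2% and Dnaja1 from 32.3% to 42.4%, while Hsph1 was at 8.69% and 8.47%. The part of stress in the shares of the other lists was not tested.

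**Figure D4:**
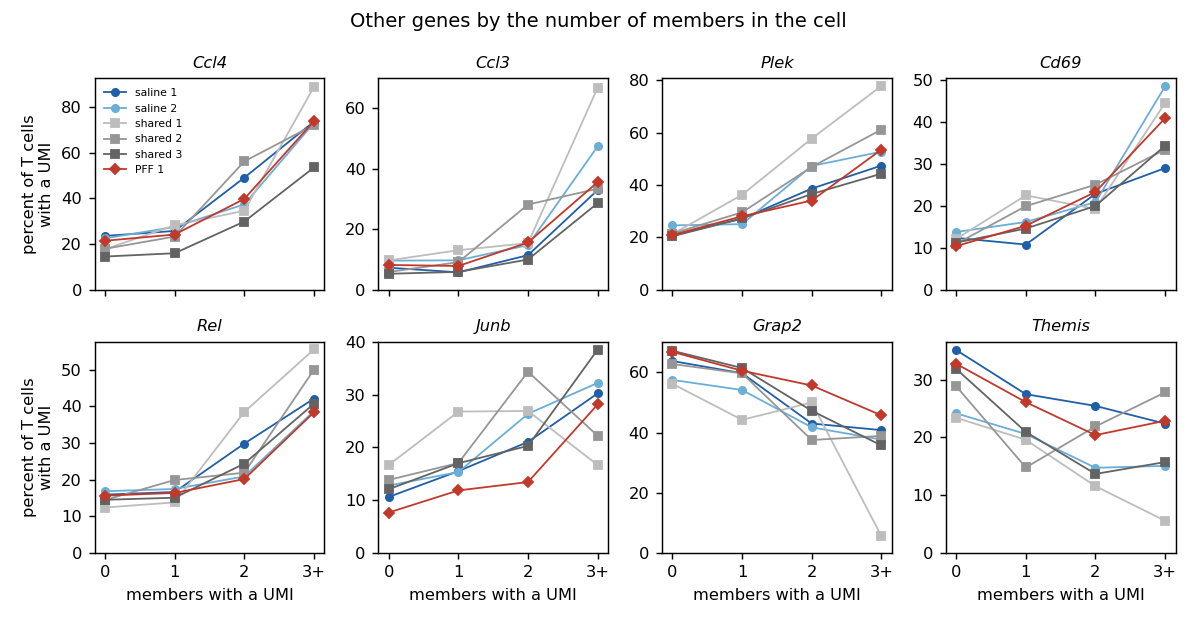
Percent of thinned T cells with a UMI of 8 other genes, by the number of members with a UMI in the cell (0, 1, 2, 3 or more), with 1 line per well; axes start at 0. Ccl4, Ccl3, Plek, Cd69 and Rel are higher with 3 or more members than with none in 6 of 6 wells, Junb in 5 of 6, and Grap2 is lower.

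Across types the likeness was of another kind. Over 26 points, each a T cell type in a well with at least 50 cells, the mean of the 9 log2(CPM + 10) levels went most with Zbtb33, Pcmt1, Nudt4, Zmat2, Os9, Rheb, Sde2, Gpr65 and Specc1, at Pearson r from 0.78 to 0.82. The points share wells and depth, 9187 genes were ranked, and the list describes this ranking and no more.

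PFF 1 was then compared with the 2 saline libraries by summing UMIs per class and library. No member was called in T cells: 0 of 9 passed edgeR's quasi-likelihood test at an adjusted p under 0.05, where 0.0125% of the 15969 genes tested (2 genes) did. At an unadjusted p under 0.05 it was 0 members and 480 genes, and DESeq2 called 0 members. The log2 fold changes of PFF over saline ran from -0.17 ± 0.25 (SE) for Nr4a1 to 0.26 ± 0.38 for Egr2, all with an adjusted p of 1.00 in edgeR. Nr4a2 was at 0.09 ± 0.25, Egr1 at 0.06 ± 0.26, Nfkbid at 0.23 ± 0.18 and Jun at 0.11 ± 0.47. The median over the 9 genes was 0.21, beside -0.02 over all genes tested.

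The 2 saline libraries lay apart. Saline 2 was above saline 1 in CPM for all 9 members, and by 0.15 (Nfkbid) to 1.51 (Fos) on the log2 scale after TMM normalization. The PFF level lay between the saline libraries for 8 members and above both for Nfkbid. Against saline 1 alone, of the same batch, the median member was 0.60 higher in PFF 1, and against saline 2 alone, of the other batch, it was 0.22 lower, so the direction rests on which saline library is used. A shared batch label did not make saline 1 the library most like PFF 1. Median UMIs per T cell were 3210 in saline 1, 10248.5 in saline 2 and 9134 in PFF 1. Cells over the mitochondrial limit were 3.04%, 22.7% and 20.1% in the same order. The part of these differences in the member levels was not tested. With 1 PFF library, treatment and library cannot be told apart, and the test assumes that PFF 1 varies as the saline libraries do, on 1 residual degree of freedom. In simulated counts for this T cell comparison, 2% of 50 genes with a 2-fold change and 68% of 50 genes with a 4-fold change were recovered, so changes of the size seen here were not detectable.

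Types and classes with at least 50 cells in each of the 3 libraries gave the same count of 0 members called. That was so in gamma-delta T cells (0.0134% of genes called), CD8 alpha-alpha T cells (0.168%), cycling T cells (0.0614%), T cells outside all type gates (0.454%) and B cells (0.0243%), and DESeq2 called 0 members in each of these 5. By unadjusted p in edgeR 0, 1, 1, 2 and 1 members were under 0.05. The shares of all genes at this unadjusted threshold are not given here, so these counts are not read as results about the members. In CD8 alpha-alpha T cells Nr4a1 was at 9.01 CPM in saline 1, 20.2 in saline 2 and 8.23 in PFF 1, a log2 fold change of -0.85 ± 0.36 with an adjusted p of 0.621 by edgeR. PFF 1 lay below both saline libraries there, and close to saline 1. In T cells outside the type gates Egr1 was at 42.8 CPM in saline 1, 12.1 in saline 2 and 57.0 in PFF 1, a log2 fold change of 1.11 ± 0.37 with an adjusted p of 0.426 by edgeR. In B cells Egr1 was at 0 CPM in saline 1 (0 UMIs in 50 cells, exact Poisson upper bound 16.6 CPM), 8.77 in saline 2 and 26.9 in PFF 1, with 12.4 in the shared wells together and an adjusted p of 1.00 in edgeR. The richest 1% of the PFF 1 B cells held 46.7% of these UMIs.

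**Figure D5:**
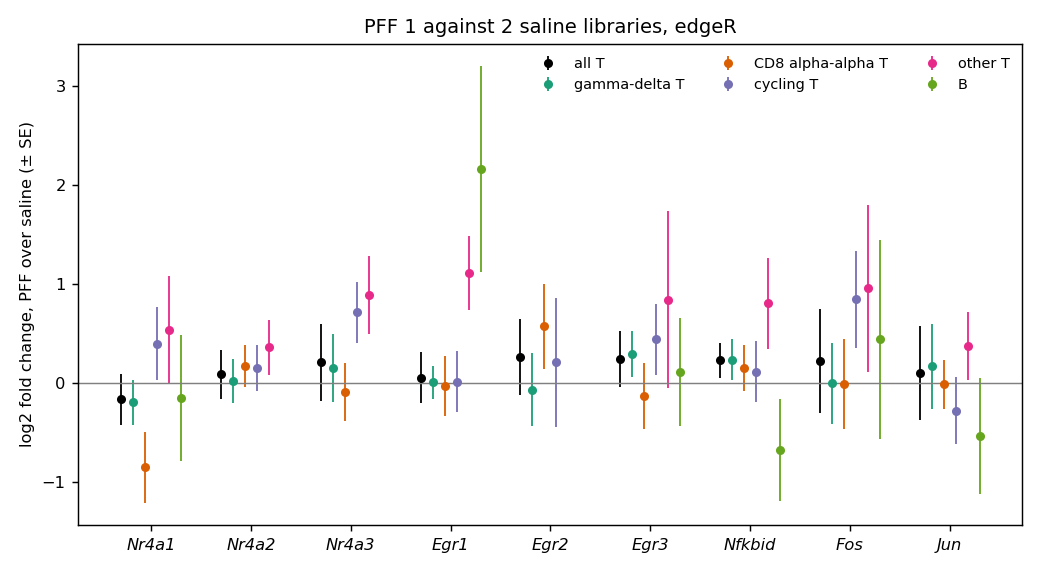
Log2 fold change of PFF 1 over the 2 saline libraries with its standard error from edgeR, for each member in all T cells, 4 T cell types and B cells; a gene too low to be tested in a class has no point. Estimates in all T cells lie between -0.17 and 0.26, and no estimate passed an adjusted p of 0.05.

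The genes downstream and around the members did not pass the test in T cells either. None of the tested genes was called in any of the 10 other lists: 14 of 17 AP-1 and serum response genes were tested, 11 of 11 NF-kB genes, 7 of 9 MAP kinase feedback genes, 11 of 11 further transcription factors, 11 of 16 cytokines, 16 of 16 surface proteins, 21 of 21 signalling components, 11 of 11 resting genes, 13 of 13 heat shock genes and 10 of 10 comparators. At an unadjusted p under 0.05 in edgeR there were 5 resting genes, 3 surface proteins, 2 heat shock genes, 2 signalling components, 0 NF-kB genes and 1 gene of each of the other 5 lists. The count of all genes in T cells at this threshold is given above, and the list counts are not read as results about the lists. Ccl4 and Ccl3, the chemokines most like the members over cells, were at -0.03 ± 0.23 and -0.03 ± 0.31 on the log2 scale. All values below are log2 fold changes of PFF over saline in T cells that did not pass the test, for the 2 highest and 2 lowest genes of a list.

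In the AP-1 and serum response list 5 of 14 were above 0 with a median of -0.20, from Atf3 at -1.25 and Btg1 at -0.47 to Ier5 at 0.08 and Btg2 at 0.41. In the NF-kB list 6 of 11 were above 0, from Nfkbib at -0.21 and Rela at -0.17 to Nfkb1 at 0.22 and Nfkbiz at 0.26. In the MAP kinase feedback list 3 of 7 were above 0, from Dusp5 at -0.57 and Spry2 at -0.21 to Dusp1 at 0.06 and Dusp10 at 0.35. These 3 lists thus spread around 0, beside 47.5% of all genes tested above 0. Cytokines and chemokines ran from Areg at -1.83 and Il2 at -0.16 to Tnfsf11 at 0.77 and Tnf at 1.06, with 6 of 11 above 0. Surface proteins ran from Tnfrsf4 at -0.59 and Lag3 at -0.22 to Pdcd1 at 1.68 and Cd5 at 1.74, with 9 of 16 above 0. The shared saline wells together were above PFF 1 for both of the highest, at 5.76 CPM against 1.63 for Pdcd1 and 21.8 against 5.78 for Cd5, so the direction turned with the saline wells used. Further transcription factors ran from Myc at -0.28 and Bhlhe40 at -0.17 to Nfatc1 at 0.22 and Tox2 at 1.73, with 6 of 11 above 0. Here too the shared wells together were above PFF 1 for 7 of the 11, with Tox2 at 5.46 CPM against 2.07. Signalling components ran from Cd3e at -0.48 and Bcl10 at -0.18 to Fyn at 0.36 and Nfatc2 at 0.53, with 15 of 21 above 0.

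The resting and the heat shock genes leaned one way against saline 1 and saline 2. Resting T cell genes were above 0 in 11 of 11 with a median of 0.60, from Foxp1 at 0.27 and Foxo1 at 0.33 to Klf2 at 1.75, a transcription factor of recirculating T cells. Against the shared saline wells the direction turned: 7 of the 11 resting genes were higher in those wells than in PFF 1, Foxp1 at 668 CPM against 607 and Foxo1 at 212 against 203, while Klf2 was at 2.48 against 3.28. Heat shock genes were above 0 in 11 of 13 with a median of 0.27, from Hspd1 at -0.14 and Dnajb4 at -0.11 to Hspa1b at 1.76 and Hspa1a at 2.48. Hspa1b was at 1.79 CPM in saline 1, 5.13 in saline 2, 1.62 in the shared wells together and 12.1 in PFF 1. PFF 1 was the highest library for this chaperone, and the part of stress during preparation in the comparison was not tested.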

How the data were processed

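The deposited matrices give unnormalized UMI counts, a gene by a cell barcode, made with Cell Ranger 7.0.0 per the file headers and on mm10 per the submitters' processing notes. The annotation release is not given in the sources used here. A cell needed 500 UMIs, 200 genes and no more than 15% mitochondrial UMIs. Scrublet (scanpy 1.11.5) scored doublets per well, and the highest scores were removed at 0.8% per 1000 cells. T cells, 7 T types and 9 other classes were gated on marker UMIs; the gamma constant genes carry the names Tcrg-C1, Tcrg-C2 and Tcrg-C4 in the files. Counts summed per library and class were tested with edgeR 4.0.16 (TMM, filterByExpr, quasi-likelihood F test, 2-sided, Benjamini-Hochberg over all genes) in R 4.3.3, with DESeq2 1.42.0 as an alternative. The code was tested on simulated data, with 0 false calls among 15969 genes. Members, lists and gates were chosen with earlier results of these data known. Named genes were the members, the 15 most and 5 least alike over cells, the 10 most alike over types, and up to 4 per list by fitted value; the list genes shown by share of cells were chosen after their values were seen. Libraries may hold several mice, and p-values measure only the spread between these libraries. Some genes that the rule names are not reported here.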

Additional observations from a re-analysis of the deposited data

How the results depend on the processing

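No paired analysis was possible because PFF 1 shares a replicate number with saline 1 only. Without 1 of the saline libraries there were no residual degrees of freedom, so those settings gave values without a test, and for the calls of single classes they gave none.

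No member was called in any class under RLE normalization, no low-count filter, DESeq2, the shared wells as an additional saline library, stricter cell filters or doublets kept. The saline files as deposited called 1 member in T cells, 2 in gamma-delta, 1 in CD8 alpha-alpha, 6 in cycling and 4 in other T cells and 8 in B cells, with 722, 1176, 2006, 2497, 1914 and 4420 genes in all; both files hold the same 3 wells there, which makes the replicates alike by construction. Genes called without the low-count filter were 128 in T cells (2 with it), 0 in gamma-delta (2), 89 in CD8 alpha-alpha (21), 32 in cycling T (7) and 0 in B cells (2). DESeq2 called 5, 5, 3, 1, 2 and 0 genes in the order T, gamma-delta, CD8 alpha-alpha, cycling T, other T (38 in edgeR) and B. With the shared wells added the counts were 0 in each class but other T, at 3. RLE gave 0 in gamma-delta and 39 in CD8 alpha-alpha T cells. At least 1000 UMIs per cell gave 1, 6, 7 and 0 genes in gamma-delta, CD8 alpha-alpha, other T and B cells, and at most 10% mitochondrial UMIs gave 3, 0, 22 and 0 in CD8 alpha-alpha, cycling T, other T and B cells. Doublets kept gave 1, 6 and 32 in gamma-delta, CD8 alpha-alpha and cycling T cells. Leaving out the cells whose barcode is in both saline 2 and PFF 1, chosen after seeing the data, gave 0 in gamma-delta T cells. The cause of these shifts was not tested.

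Of 108 values of single members in T cells under alternatives, 96 kept their direction. Without saline replicate 1 and without saline replicate 2 the values were -0.378 and 0.0939 for Nr4a1, -0.17 and 0.406 for Nr4a2, -0.227 and 0.863 for Nr4a3, -0.225 and 0.408 for Egr1, -0.099 and 0.778 for Egr2, -0.0377 and 0.602 for Egr3, 0.162 and 0.299 for Nfkbid, -0.321 and 1.19 for Fos and -0.418 and 0.967 for Jun, so 8 members changed sign with 1 library left out. In the files as deposited Nr4a1 was at 0.0054, Nr4a2 at -0.114 and Nfkbid at 0.44, the member called there (adjusted p = 0.0482 by edgeR). Nr4a2 was at -0.0119 with the shared wells as an additional library, and Egr1 at -0.0254 with doublets kept. The median over the members ran from -0.22 to 0.60 when a saline library was left out. Thinning to 1000 or 4000 UMIs in place of 2000 moved the share of T cells with Nr4a2 (median over wells) from 18.9% to 11.1% or 29.0%, the share with 3 or more members from 2.59% to 1.21% or 4.797%, and the summed ratio of the pairs without Jun from 4.26 to 5.65 or 3.16. Left-out saline libraries gave 18.9 to 19.0%, 2.44 to 2.74% and 4.18 to 4.28 for these, and 1.04 to 1.07 for the pairs with Jun. Depth limits the rarer genes: Egr2 rests on 12 UMIs in shared 1.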

Other observations

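Nr4a2 was found less often than its share predicts in T cells with a UMI of Cd2, Cd5 or Cd6, a pattern chosen after its values were seen. Cd5 and Cd6 are inhibitory or adhesive surface receptors and Cd2 an adhesion receptor, all of which many intraepithelial T cells carry little of. Among the 24180 thinned T cells Nr4a2 was in 6 of 362 cells with a Cd5 UMI, where 65.2 were expected from the shares in each well, a ratio of 0.092. It was in 4.04% of cells with Cd6 against 17.3% of cells without, and in 4.58% of cells with Cd2 against 17.1% without. The Nr4a2 count lay below expectation in 6 of 6 wells for each of the 3 genes. The ratios of Nr4a1 were 0.907 with Cd2, 0.860 with Cd5 and 0.639 with Cd6, and those of Nr4a3 were 0.870, 0.632 and 0.662, from 5 to 10 cells with both. Jun had 0.609 with Cd2, 0.362 with Cd5 and 0.577 with Cd6. Nfkbid had 0.941, 1.65 and 1.11. The expectation was taken over all T cell types of a well together, although Nr4a2 differed by type. It was in 16.8% of gamma-delta and 1.45% of conventional CD4 T cells. The part of the mix of types in these ratios and the differences between members were not tested.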
